A study of Mus musculus with 4 samples.

Results

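The genes described here are Trp53, which encodes the tumour suppressor p53, and 9 genes taken here as its targets: Mdm2, Cdkn1a, Ccng1, Gadd45a, Gadd45b, Sesn1, Sesn2, Trp53inp1 and Btg2. They were chosen by name from the gene column of the scanner files, with every probe kept. This gave 10 genes with 20 probes, of 28307 genes or names with 41174 probes on the array. B220 B cells, which carry the B-lineage form of the surface phosphatase CD45, were taken fresh from naive mice. The 4 groups were bone marrow of Mef2c KO mice, bone marrow of C57BL/6 mice (WT), spleen of Mef2c KO mice and spleen of C57BL/6 mice, each measured on 1 Agilent 1-colour array. The labels do not state the deleted part of Mef2c, any Cre driver, the strain behind the KO, the age or sex of the mice, or how many mice stand behind an array.

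p53 is a transcription factor that is made constantly and destroyed quickly, because Mdm2, a ubiquitin ligase, marks it for degradation. After DNA damage or other stress p53 is stabilised and switches on genes that stop the cell cycle, aid repair, limit growth or start cell death, and Mdm2 is itself one of these genes, which closes a feedback loop. In developing B cells p53 is known for guarding against the DNA breaks made during rearrangement of the immunoglobulin genes. Much of its control acts on the protein, which an RNA array does not measure.

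With 1 array for each group, a difference within a tissue has no replicate check and no p-value, and whether groups overlap cannot be judged. Levels are log2 signals relative to the 75th percentile of the array, and a difference is KO minus WT or spleen minus marrow on that log2 scale, so that 1 stands for 2-fold. It came to a signal of 524 for spleen KO, while the others ranged from 966 to 1012, so raw signals of spleen KO lie low in general. Of the gene spots, 59.3% were well above background on spleen KO and 69.1% to 72% on the others. Where a probe was printed 10 times, the median SD of its spots was 0.101 to 0.141 on the log2 scale, which covers spotting on 1 array only. The marrow pair shared slide 1 and the spleen pair slide 2, and on each slide KO took position 1 and WT position 2, so slide and tissue cannot be told apart, nor position and genotype. The brighter probe of Mef2c, the gene named in the KO label, had levels of 2.45 in marrow KO against 2.13 in marrow WT, and of 4.50 in spleen KO against 3.13 in spleen WT. A dimmer Mef2c probe had a marrow difference of 0.36 and a spleen difference of -0.61. The brighter probe was thus not lower on either array labelled KO and the dimmer one was lower in spleen KO, and every direction below rests on the labels. All 9 B-lineage markers were well above background on all arrays, among them Cd79a and Cd79b.

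Probes at different places on 1 transcript gave different readings, and the printed probes are those inside coding sequence whose reading is set below against a probe further 3′ or, for Trp53, further 5′. Each is 60 bases long, was read from the deposited scanner files and is shown whole in lower case, with no part singled out. The p53 probe lies at chr11:69403134-69403193 (plus strand), that of Mdm2 at chr10:117129725-117129784 (minus strand) and that of Btg2 at chr1:135974181-135974240 (minus strand), all in exons on mouse build mm9. The first Sesn1 probe crosses an intron between chr10:41618206-41622368, and the second lies in an exon at chr10:41627097-41627156 (both plus strand).
Trp53, base 989: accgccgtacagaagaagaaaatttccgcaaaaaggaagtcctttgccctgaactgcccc
Mdm2, base 921: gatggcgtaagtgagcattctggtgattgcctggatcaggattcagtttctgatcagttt
Btg2, base 284: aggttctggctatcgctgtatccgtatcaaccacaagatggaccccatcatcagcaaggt
Sesn1, base 814: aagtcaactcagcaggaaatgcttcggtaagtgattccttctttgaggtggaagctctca
Sesn1, base 1456: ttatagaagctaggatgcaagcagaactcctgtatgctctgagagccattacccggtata

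p53 acts on its target genes through paired copies of a short motif, the p53 half-site. The p53 half-site consensus, which reads the same on both strands, was searched in RefSeq promoters of build GRCm38.p6, each holding 250 bases before and 50 bases after a gene's start. It was present in 6 of 11 promoters of 9 members (Trp53inp1 was not in the promoter table), and in 2745 of all 32851 promoters (8.36%). The windows below are shown because they hold these matches, with the motif in capitals and 10 bases on either side. A match is a description of letters and no evidence of binding. The upstream promoter of Cdkn1a was the only one of the 11 with 2 matches, 73 and 51 bases before the start, and its windows share bases. Those of Gadd45a, Trp53, Sesn1 (its downstream start), Ccng1 and Mdm2 began 40, 75, 173, 185 and 186 bases before the start.
Cdkn1a, chr17:29090896-29090925, plus strand: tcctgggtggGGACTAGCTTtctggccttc
Cdkn1a, chr17:29090918-29090947, plus strand: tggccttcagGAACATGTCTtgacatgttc
Gadd45a, chr6:67037428-67037457, minus strand: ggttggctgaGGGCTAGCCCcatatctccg
Trp53, chr11:69580274-69580303, plus strand: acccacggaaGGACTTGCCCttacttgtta
Sesn1, chr10:41887256-41887285, plus strand: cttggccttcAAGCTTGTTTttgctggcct
Ccng1, chr11:40755452-40755481, minus strand: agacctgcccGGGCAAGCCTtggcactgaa
Mdm2, chr10:117710925-117710954, minus strand: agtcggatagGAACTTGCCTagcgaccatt

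All 20 member probes were well above background on all 4 arrays by the mark of the scanner software, with 8 of 10 spots for Cdkn1a on spleen KO. For counts of genes, the brightest probe stood for a gene. In the marrow, 1 of the 10 genes (Gadd45a) was at least 2-fold higher in KO than in WT and 0 were at least 2-fold lower, where 13.2% of 21231 measured genes lay at least 2-fold apart (8.34% higher and 4.87% lower). The median of the 10 differences was -0.09, beside -0.07 for all measured genes. In the spleen, 4 of 10 genes (Gadd45a, Ccng1, Trp53inp1 and Mdm2) were at least 2-fold higher in KO and 0 lower. Of 19811 measured genes, 34.1% lay at least 2-fold apart there (19.6% higher and 14.5% lower). The median of the 10 spleen differences was 0.81, against 0.08 for all measured genes and 0.27 for genes above background on both arrays. Over all 20 member probes the median was -0.21, with 9 above 0 and 11 below. With quantile normalization or cyclic loess the spleen count was 1 higher (Gadd45a) and 1 lower (Trp53), and with the median over probes it was 2 higher and 3 lower. Of the 8 genes with over 1 probe, 6 (Trp53inp1, Mdm2, Btg2, Sesn1, Sesn2 and Gadd45b) had probes of opposite sign in the spleen, as described below.

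**Figure D1:**
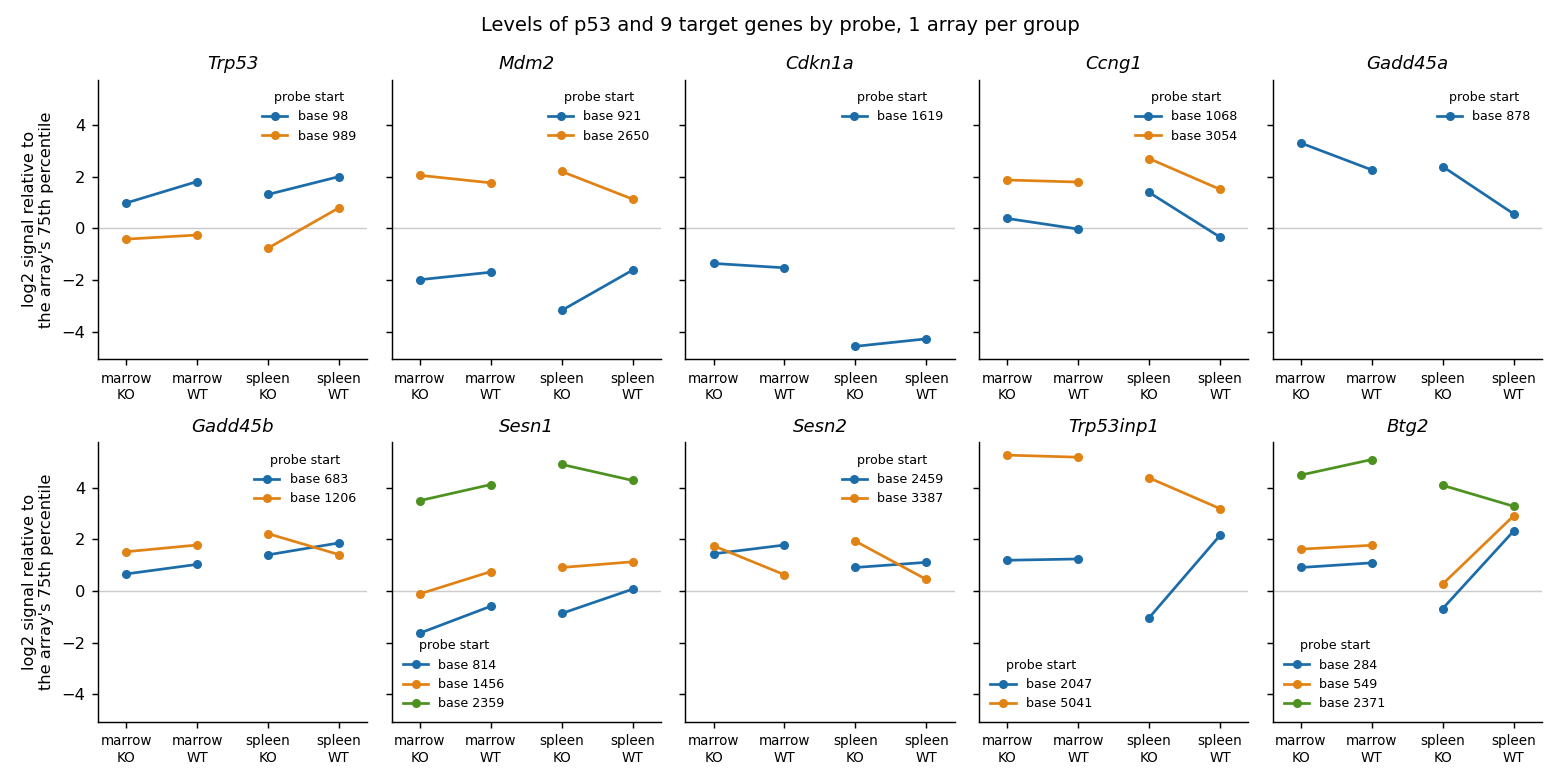
Level of every member probe (log2 signal relative to the array's 75th percentile, vertical axis) on the 4 arrays (horizontal axis), 1 panel per gene and 1 colour per probe, named by its first base in the transcript; lines join KO and WT of a tissue and no error is drawn, since each group is 1 array. The probe of Gadd45a stands higher in KO in both tissues, both probes of Trp53 stand lower, and the probes of Btg2 and of Trp53inp1 part in the spleen.

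Trp53 itself was lower in KO than in WT by both of its probes in both tissues, by amounts that differed between probes. The brighter probe, at chr11:69393959-69394017 in the noncoding first exon, gave signals of 2000 in marrow KO against 3395 in marrow WT, and of 1295 in spleen KO against 3887 in spleen WT. After scaling, these gave differences of -0.83 in the marrow (1.78-fold lower) and -0.69 in the spleen (1.62-fold lower). The coding probe printed above, with 10 spots on each array, gave signals of 756 ± 17.5 in marrow KO against 809 ± 24.5 in marrow WT, and of 308 ± 10.4 in spleen KO against 1680 ± 54.1 in spleen WT (SD over spots). Spleen WT was the high array for this probe and spleen KO the low one. Its differences were -0.17 in the marrow and -1.55 in the spleen (2.94-fold lower), beside medians of -0.09 and 0.0 over all measured probes. The negative sign held for both probes under each of 4 other scalings and background corrections, with ranges of -1.05 to -0.27 for the first-exon probe and -1.58 to -1.13 for the coding probe in the spleen. In the marrow the ranges were -0.86 to -0.78 and -0.17 to -0.07.

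From low to high, the levels of Trp53 by the first-exon probe were 0.98 in marrow KO, 1.31 in spleen KO, 1.81 in marrow WT and 2.0 in spleen WT. By the coding probe they were -0.77 in spleen KO, -0.42 in marrow KO, -0.26 in marrow WT and 0.79 in spleen WT. Spleen WT was thus highest by both, and the order of the 2 KO arrays differed between the probes. The neighbours in this order have no spread between samples to be judged against. In a limma fit over 22059 genes with tissue and genotype as terms, which treats the tissues as repeats of the same genotype effect and leaves 1 residual degree of freedom, the genotype coefficient of Trp53 was -0.76 ± 0.518 (SE, adjusted p = 0.636 by limma with Benjamini-Hochberg adjustment). It lay below 0 in 2 of 2 tissues. The genes whose 4 centred levels lay nearest to the first-exon probe, among 16515 genes above background on all 4 arrays, were Sik2, a salt-inducible kinase, with a root mean square difference of 0.0368, Sft2d3 with 0.0447, and a probe listed as TC1669112 with 0.0463.

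Mdm2, the ubiquitin ligase that degrades p53, gave opposite signs by its probes. Its brighter probe lies in the 3′ untranslated region at chr10:117126278-117126337 and gave signals of 4183 in marrow KO against 3265 in marrow WT, and of 2412 in spleen KO against 2134 in spleen WT. It stood 0.29 higher in KO in the marrow and 1.07 higher in the spleen (2.10-fold). With quantile normalization (0.72) and cyclic loess (0.67) its spleen value was under 2-fold. The coding probe, with 10 spots, gave signals of 254 ± 17.1 in marrow KO against 298 ± 23.2 in marrow WT, and of 58.1 ± 4.75 in spleen KO against 316 ± 20 in spleen WT (SD over spots). Spleen KO was the low array here, and the other 3 lay close together. The coding probe was lower in KO, by a difference of -0.30 in the marrow and -1.55 in the spleen (2.94-fold). With normexp the spleen value was -0.81, under 2-fold.

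Cdkn1a, which encodes the cell cycle inhibitor p21 and is the textbook p53 target, did not reach 2-fold between KO and WT in either tissue. Its single probe, at chr17:29237377-29237436 in the 3′ untranslated region and printed 10 times, gave signals of 395 ± 15.5 in marrow KO against 334 ± 19.5 in marrow WT, and of 22.2 ± 3.02 in spleen KO against 50.2 ± 3.74 in spleen WT (SD over spots). The differences were 0.17 in the marrow and -0.29 in the spleen, and the sign in the spleen turned with scaling (range -0.29 to 0.32). Both marrow arrays were high and both spleen arrays low.

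Ccng1, a cyclin-like gene long used as a readout of p53, was higher in spleen KO than in spleen WT by both of its probes. The brighter one, at chr11:40562427-40562486, gave signals of 3700 in marrow KO against 3343 in marrow WT, and of 3400 in spleen KO against 2776 in spleen WT, with differences of 0.08 and 1.19 (2.27-fold in the spleen). The probe nearer the 5′ end, at chr11:40564413-40564472, gave signals of 1319 in marrow KO against 944 in marrow WT, and of 1377 in spleen KO against 766 in spleen WT, with differences of 0.42 and 1.74. The KO array was the higher one in all of these pairs. In the spleen the positive sign held under all scalings tried, with ranges of 0.75 to 1.61 and 1.58 to 2.16.

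Gadd45a, which encodes a stress sensor that slows the cell cycle and aids repair, was the only one of the 10 genes to stand at least 2-fold above WT in KO of both tissues by its brightest probe. Its probe at chr6:66985376-66985435 gave signals of 9961 in marrow KO against 4613 in marrow WT, and of 2748 in spleen KO against 1437 in spleen WT. The KO array was the brighter one in each tissue, with differences of 1.04 in the marrow (2.06-fold) and 1.83 in the spleen (3.55-fold). Across scalings these ran from 0.97 to 1.06 and from 1.37 to 2.26, so that quantile normalization put the marrow value under 2-fold. In the limma fit the genotype coefficient was 1.44 ± 0.535 (SE, limma adjusted p = 0.410), positive in 2 of 2 tissues, and the adjusted p ran from 0.0533 to 0.518 over the other settings. Its gene has 1 probe here, so its reading was not checked against a second site on the transcript.

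Gadd45b, a relative of Gadd45a that responds to inflammatory and stress signals, stayed within 2-fold in both tissues with the reported scaling. Median scaling put its brighter probe past 2-fold in the spleen, at 1.24 (range over scalings 0.42 to 1.24). The brighter probe, at chr10:80394890-80394949, gave signals of 2908 in marrow KO against 3326 in marrow WT, and of 2442 in spleen KO against 2583 in spleen WT, with differences of -0.26 and 0.81. The probe 523 bases nearer the 5′ end gave signals of 1599 in marrow KO against 1967 in marrow WT, and of 1379 in spleen KO against 3518 in spleen WT, with differences of -0.37 and -0.46. Both probes were slightly lower in marrow KO, and in the spleen they had opposite signs.

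Sesn1 and Sesn2 encode sestrins, stress proteins that restrain growth signalling through mTORC1. Sesn1 was lower in marrow KO than in marrow WT by all 3 of its probes. The brightest, at chr10:41628000-41628059 near the 3′ end, gave signals of 11440 in marrow KO against 16740 in marrow WT, and of 15630 in spleen KO against 18910 in spleen WT, with differences of -0.62 and 0.62 (in the spleen -0.19 with cyclic loess and -0.15 with quantile normalization). The first coding probe printed above gave signals of 326 in marrow KO against 640 in marrow WT, and of 287 in spleen KO against 1018 in spleen WT, with differences of -1.04 and -0.93. At the second coding probe the signals were 936 in marrow KO against 1628 in marrow WT, and 984 in spleen KO against 2124 in spleen WT, with differences of -0.87 and -0.22 (0.21 in the spleen with median scaling). The difference thus stepped upward from the 5′ probe to the 3′ probe in both tissues, by 1.55 in the spleen and 0.42 in the marrow. The marrow difference kept its sign, which held for the 3 probes under all scalings tried.

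Sesn2 also gave opposite readings. The probe designed on the reference transcript, at chr4:132048858-132048917, gave signals of 2754 in marrow KO against 3310 in marrow WT, and of 986 in spleen KO against 2093 in spleen WT, with differences of -0.33 and -0.19 (0.23 in the spleen with median scaling). A probe designed on a cDNA clone, at chr4:132047974-132048033 and so further along the gene's minus strand, gave signals of 3404 in marrow KO against 1493 in marrow WT, and of 1996 in spleen KO against 1328 in spleen WT. The clone probe was brighter on KO in both tissues, with differences of 1.12 and 1.48. The files do not say whether the clone belongs to the same transcript as the reference probe.

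Trp53inp1 and Btg2 had the widest gap between probes. Trp53inp1 encodes a protein that promotes p53 activity and autophagy. Its brighter probe, at chr4:11101174-11101233 near the end of a long 3′ untranslated region, gave signals of 38710 in marrow KO against 35110 in marrow WT, and of 10930 in spleen KO against 8900 in spleen WT, with differences of 0.07 and 1.19 (2.28-fold in the spleen). The probe 2994 bases nearer the 5′ end, at chr4:11098180-11098239, gave signals of 2309 in marrow KO against 2274 in marrow WT, and of 254 in spleen KO against 4321 in spleen WT. Its marrow difference was -0.05 and its spleen difference -3.19 (9.14-fold lower), so with the reported scaling both directions past 2-fold came from 1 transcript in the spleen. Over scalings the spleen difference ran from -3.43 to -2.77 at this probe and from 0.33 to 1.62 at the brighter one. The brighter probe was under 2-fold there with quantile normalization (0.50) and cyclic loess (0.33).

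Btg2, an antiproliferative gene that also assists the shortening of mRNA tails, showed the same kind of gap. Its coding probe at base 284 gave signals of 1896 in marrow KO against 2049 in marrow WT, and of 326 in spleen KO against 4851 in spleen WT, with differences of -0.18 and -3.00. A probe at base 549, at chr1:135973916-135973975, gave signals of 3104 in marrow KO against 3301 in marrow WT, and of 631 in spleen KO against 7297 in spleen WT, with differences of -0.16 and -2.64. By these, spleen KO was the low array and spleen WT the high one. The brightest probe, at chr1:135972094-135972153 in the 3′ untranslated region, gave signals of 22710 in marrow KO against 32990 in marrow WT, and of 8919 in spleen KO against 9461 in spleen WT, with differences of -0.61 and 0.81, and its spleen difference was -0.01 with cyclic loess.

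**Figure D2:**
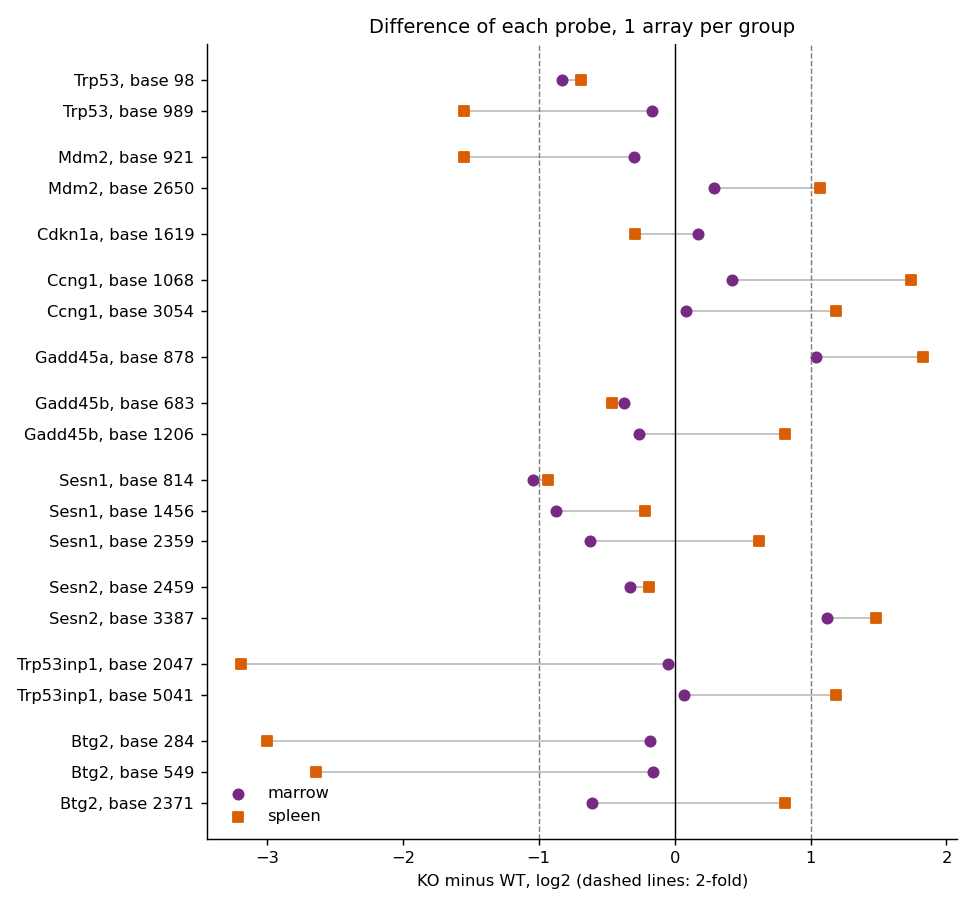
Difference KO minus WT (log2, horizontal axis) of each of the 20 member probes, listed by gene and first base in the transcript, in the marrow (circles) and the spleen (squares), from 1 array per group; dashed lines mark 2-fold. In the marrow the 20 values lie between -1.04 and 1.12, in the spleen between -3.19 and 1.83.

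Counted by probe, 2 of 20 passed 2-fold upward and 1 downward in marrow KO (12.9% of 30619 measured probes lay at least 2-fold apart), and 6 stood higher and 5 lower in spleen KO (35.8% of 28857). To see how far the position of a probe goes with its reading, the difference at the 3′ probe less that at the 5′ probe was taken for 3568 probe pairs that share a transcript, a median of 1091 bases apart. In the marrow the median gap was 0.13 and 5.77% of all pairs had a gap over 2-fold, with 0 of 7 member pairs. In the spleen the median was 0.45 and 40.5% of all pairs had a gap over 2-fold, 1162 with the 3′ probe higher and 284 with it lower. There, 5 of the 7 member pairs passed 2-fold, all with the 3′ probe higher in KO. Their gaps were 4.38 for Trp53inp1, above 99.7% of all pairs, 3.81 for Btg2 (above 99.1%), 2.62 for Mdm2, 1.55 for Sesn1 and 1.27 for Gadd45b. Ccng1 at -0.55 and Trp53 at -0.86 ran the other way.

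Within each array the log2 signal of the 3′ probe less that of the 5′ probe was, for Trp53inp1, 4.07 in marrow KO against 3.95 in marrow WT, and 5.42 in spleen KO against 1.04 in spleen WT. For Btg2 it was 3.58 in marrow KO against 4.01 in marrow WT, and 4.77 in spleen KO against 0.96 in spleen WT. Spleen WT was thus the array apart from the other 3 for these genes. For Mdm2 the values were 4.04 in marrow KO against 3.46 in marrow WT, and 5.38 in spleen KO against 2.76 in spleen WT, with the 2 spleen arrays at the extremes. The labels and headers give no RNA integrity values, and the part that RNA quality has in these gaps was not tested.

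**Figure D3:**
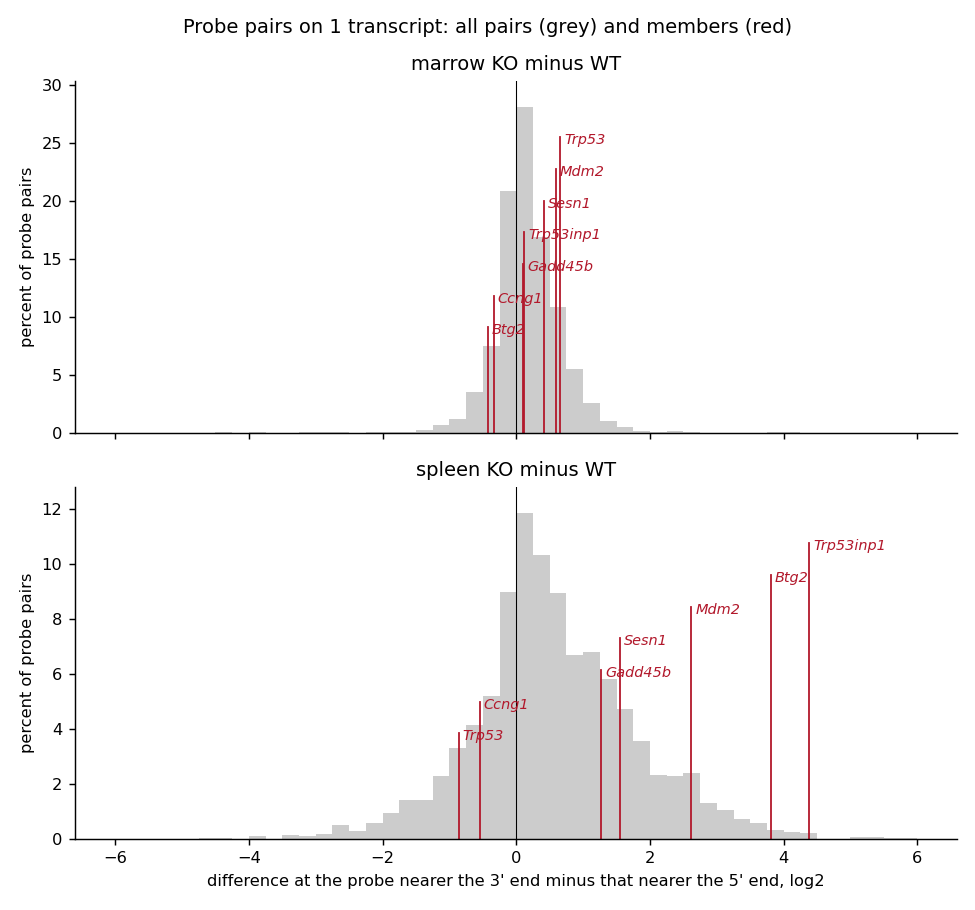
Gap between the KO minus WT difference at the probe nearer the 3′ end and at the probe nearer the 5′ end of 1 transcript (log2, horizontal axis), as percent of 3568 pairs (grey bars, vertical axis), marrow above and spleen below, with the 7 member pairs as red lines whose height carries no value. The spread is wider in the spleen, where Trp53inp1 and Btg2 lie at 4.38 and 3.81.

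The comparison of tissues asked how the same genes stand in splenic against marrow B220 cells. By the brightest probe, 1 of 10 genes (Sesn1) was at least 2-fold higher in spleen KO than in marrow KO and 1 (Cdkn1a) lower. Of 20320 measured genes, 29.5% lay at least 2-fold apart there (15.6% higher and 13.9% lower). Between the WT arrays 0 were higher and 4 (Cdkn1a, Trp53inp1, Btg2 and Gadd45a) lower in spleen. Of 21447 measured genes, 31.2% lay at least 2-fold apart there (15.5% higher and 15.6% lower). The medians of the 10 differences were -0.12 in KO and -0.65 in WT, beside 0.01 and -0.09 over all measured genes. The 2 tissue comparisons use the same 4 arrays as the genotype comparisons.

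Cdkn1a was the only member past the threshold in the limma fit, in the tissue term. Its level was -4.57 on spleen KO and -1.36 on marrow KO, and -4.28 on spleen WT and -1.53 on marrow WT, so that it was lower in spleen in 2 of 2 genotypes. The differences were -3.21 in KO (9.27-fold lower) and -2.74 in WT (6.70-fold lower). The tissue coefficient was -2.98 ± 0.524 (SE, limma adjusted p = 0.0129), where 7.05% of all genes were called, and the adjusted p ran from 9.6e-05 to 0.0294 over the other settings. With the normexp background correction the coefficient was -1.62, and 2 more members, Gadd45a and Trp53inp1, passed, where 10.6% of all genes were called. As slide and tissue coincide, they cannot be told apart here.

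The genes nearest to Cdkn1a in their 4 centred levels were Asf1b, a histone chaperone, at a root mean square difference of 0.0785, Prim2, a primase subunit, at 0.0875, and Ncapd2, a condensin subunit, at 0.0885. Of 10 cell division genes such as Mki67 and Top2a, all 10 were at least 2-fold lower in spleen in both genotypes, with medians of -3.95 in KO and -3.42 in WT. The summed linear level of this list, relative to the 75th percentile, was 23 on spleen KO and 282 on marrow KO, and 26.7 on spleen WT and 264 on marrow WT. Neutrophil genes were also lower in spleen, with sums of 144 on spleen KO and 1390 on marrow KO, and 11 on spleen WT and 433 on marrow WT. Their part in the Cdkn1a difference was not tested. In such bulk RNA, fewer cells of a type and less RNA per cell cannot be told apart.

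The tissue differences of other members depended on probe or genotype. Gadd45a was lower in spleen, by -0.91 in KO and -1.69 in WT. Trp53inp1 differed by -0.87 in KO and -1.99 in WT at its brighter probe and by -2.23 and 0.92 at its other one. Btg2 differed by -0.40 in KO and -1.81 in WT at its brightest probe, and by -1.59 and 1.23 at base 284 and -1.35 and 1.13 at base 549. Sesn1 was higher in spleen KO than in marrow KO by 1.40, 0.77 and 1.02 at its brightest, first and second coding probes, against 0.17, 0.66 and 0.37 in WT.

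In the genotype term of the limma fit 0 of 10 members passed the threshold, with 1 (Gadd45a) at an unadjusted p under 0.05. Over all 22059 genes the term called 2, both higher in KO (0.00907%), and 2323 had an unadjusted p under 0.05. A difference of the genotype effect between marrow and spleen was not tested, since 4 arrays leave nothing over for it.

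Beyond the 10 genes, 4 lists held 66 further regulators and targets of p53, of which 65 were on the array under their name (Sco2 was not matched). In the marrow 6 of 63 with a measured level stood at least 2-fold higher in KO and 2 lower, with a median of 0.06. There, 8.34% of all genes were higher and 4.87% lower. Trp63, Perp and Gls2, above background on marrow KO only, are among the 6 higher. With normexp the marrow split was 3 higher and 2 lower. In the spleen 18 of 60 stood higher and 4 lower, and the median was 0.44, where 19.6% of all genes stood at least 2-fold higher and 14.5% lower. The same shares apply to the counts of each list below. With cyclic loess the spleen split was 8 higher and 5 lower, and with the median over probes 13 higher and 7 lower.

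Among 17 regulators of p53, 5 of 15 measured were at least 2-fold higher in spleen KO and 1 lower, and 1 of 16 was higher in marrow KO. Cop1, a ubiquitin ligase for p53, had levels of 4.29 in spleen KO against 2.34 in spleen WT (difference 1.96), and of 3.23 in marrow KO against 3.96 in marrow WT (-0.73). In spleen and marrow Chek1, a checkpoint kinase, differed by 1.40 and 0.07, and Bcl6, a repressor of Trp53 in germinal centre B cells, by 1.29 and 0.73. The acetyltransferase gene Ep300 was lower in spleen KO at -1.52, with 0.09 in the marrow. Mdm4, the relative of Mdm2 that holds p53 inactive, differed by -0.32 in the spleen and -0.63 in the marrow, with its 5 probes between -3.18 and 0.13 in the spleen. Chek2, a kinase that phosphorylates p53, differed by -0.71 (0.03 at its second probe) and -0.59. Trp63, a p53 relative, was well above background on marrow KO only, at a low level of -4.21, at least 3.48-fold higher there than in marrow WT.

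Of 20 targets of arrest and repair, all measured, 6 stood at least 2-fold higher and 1 lower in spleen KO, against 0 and 1 in marrow KO. Gadd45g, the third Gadd45 gene, differed by 2.06 in the spleen (marrow 0.41) and Ccng2, a relative of Ccng1, by 1.68 (marrow 0.20). Gtse1, a mitotic gene whose product binds p53, was lower in spleen KO at -1.87 and stood at 0.85 in the marrow. Plk2, a polo-like kinase, was lower in marrow KO at -1.70, with a level of -1.70 there and 0.00 on marrow WT, and differed by 0.50 in the spleen. Btg1, a relative of Btg2, differed by 0.93 in the spleen (-0.28 at its second probe) and -0.60 in the marrow, Tob1 of the same family by -0.97 and 0.71, and the kinase gene Plk3 by 0.31 and 0.71.

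Of 14 targets of cell death, 5 of 12 measured were at least 2-fold higher in spleen KO and 0 lower, and 2 of 13 were higher in marrow KO. Pmaip1, which encodes the BH3-only protein Noxa, had levels of 2.82 in spleen KO against 0.15 in spleen WT (difference 2.67), and of -0.13 in marrow KO against -0.87 in marrow WT (0.74). Fas, the death receptor, was the only gene of the 4 lists to pass 2-fold upward in KO of both tissues. Its levels were 0.53 in spleen KO against -0.58 in spleen WT (1.11), and 0.36 in marrow KO against -1.57 in marrow WT (1.93), while its second probe stood at -0.20 in the spleen. Triap1, an inhibitor of apoptosis, differed by 1.29 in the spleen and 0.05 in the marrow. Perp, a membrane protein gene, was above background on marrow KO only, at a low level of -4.79, at least 2.32-fold higher than in marrow WT. The nuclease gene Aen had a spleen difference of -0.54 and a marrow difference of -0.42, and Bid stood at -0.32 and 0.35. Pidd1 differed by 0.49 and -0.37, with its 3 probes between -1.93 and 0.49 in the spleen.

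Of 15 targets with roles in metabolism and elsewhere, 2 of 13 measured were higher and 2 lower in spleen KO, and 3 of 14 were higher and 1 lower in marrow KO. Ddit4, an mTORC1 inhibitor induced by stress and glucocorticoids, had levels of 6.21 in spleen KO against 4.38 in spleen WT (1.83), and of 4.14 in marrow KO against 5.39 in marrow WT (-1.25). Dram1, an autophagy gene, differed by 0.60 in the spleen and 2.71 in the marrow, where its level was -1.03 on KO and -3.74 on WT. Trp53inp2, the relative of Trp53inp1, differed by 0.10 and 1.62, and the ribosomal protein gene Rps27l by 1.61 and 0.12. Trp53i11 was lower in spleen KO at -1.46 and stood at -0.57 in the marrow, and Trp53i13 differed by -1.15 and 0.15.

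**Figure D4:**
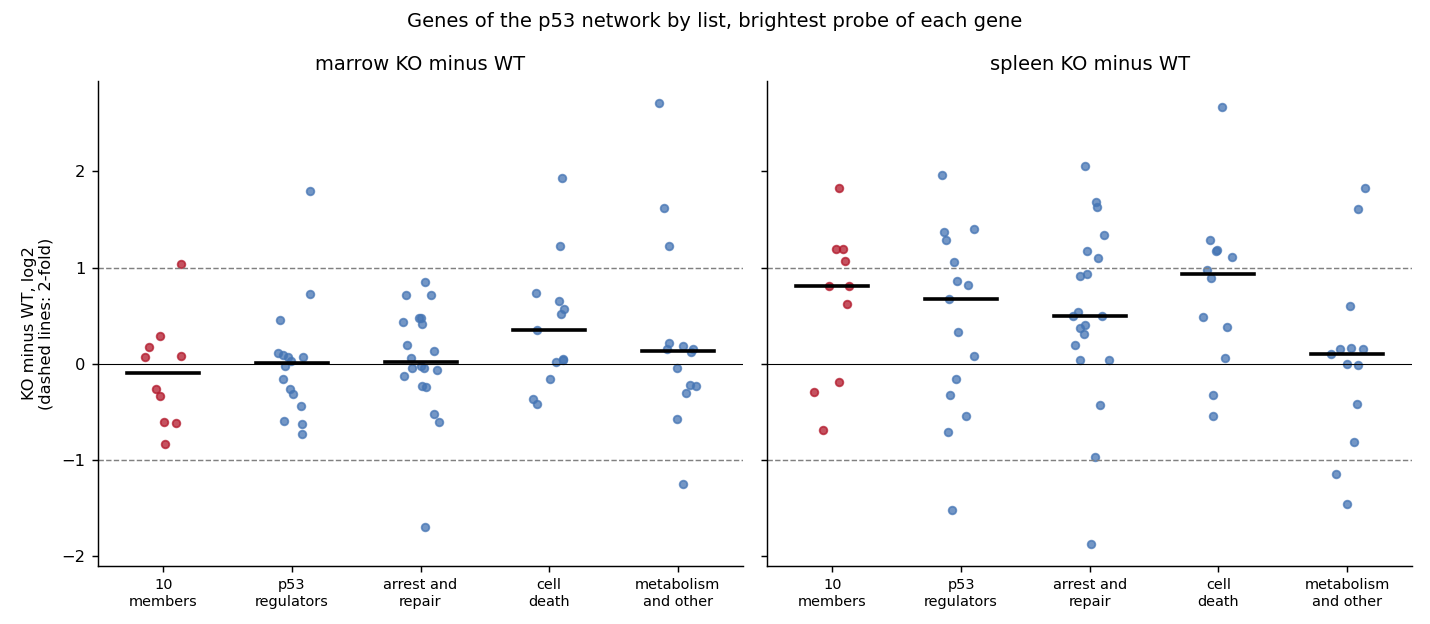
Difference KO minus WT (log2, vertical axis) of the 10 members (red) and of the genes of 4 p53 lists (blue), by the brightest probe of each gene, in the marrow (left panel) and the spleen (right panel); each point is 1 gene from 1 array per group, lower bounds included, black bars are medians and dashed lines mark 2-fold. In the spleen the cell death list has the highest median of the 4 lists at 0.94, and in the marrow its median is 0.35.

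Markers of the B lineage and of other cells also differed in these comparisons. Of 9 B-lineage genes, 3 stood at least 2-fold lower in marrow KO and 0 higher, and 4 stood lower and 3 higher in spleen KO. Cd79a, a signalling chain of the B cell receptor, was lower in KO at -1.87 (marrow) and -2.47 (spleen), and Cd79b, its partner, stood at -0.34 and 0.23. The 9 B-lineage genes summed to 481 in marrow KO against 544 in marrow WT, and to 1190 in spleen KO against 712 in spleen WT. Among the 8 neutrophil genes, 7 stood at least 2-fold higher in marrow KO and 6 in spleen KO, and all 8 were above background on all 4 arrays. Neutrophil sums were 1390 in marrow KO against 433 in marrow WT, and 144 in spleen KO against 11 in spleen WT. Of 9 macrophage genes 2 were at least 2-fold higher in marrow KO, and 4 were higher and 1 lower in spleen KO, with sums of 306 in marrow KO against 106 in marrow WT, and of 167 in spleen KO against 64.1 in spleen WT. The median difference of the macrophage list was 0.18 in the marrow and 0.30 in the spleen, and Lyz2, with a level of 8.14 in marrow KO against 6.48 in marrow WT, differed by 1.66 and 1.41. The 13 immediate early and stress genes, which include Fos, Jun and the heat shock gene Hspa1a and are known to respond to handling of cells, had sums of 82.6 in marrow KO against 62.3 in marrow WT, and of 148 in spleen KO against 59.9 in spleen WT. Of these, 9 were at least 2-fold higher in spleen KO and 2 in marrow KO. The 6 T cell genes summed to 6.4 in marrow KO against 4 in marrow WT, and to 6.42 in spleen KO against 6.25 in spleen WT. For 6 erythroid genes the sums were 5.07 in marrow KO against 7.69 in marrow WT, and 27.1 in spleen KO against 7.51 in spleen WT. The part of these cells and responses in the values of Gadd45a, Ccng1 and the targets above was not tested.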

How the data were processed

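RNA of 4 samples was measured, 1 array for each group, and groups were taken from the labels. Per the file headers, the deposited linear intensity values come from Agilent Feature Extraction 10.5.1.1, which had corrected the background within each array, with probes placed on mm9 and no scaling between arrays. All 45018 spots of the series matrix equal them. Signals of 43379 gene spots were taken to log2, less the array's 75th percentile. Outlier spots (72 to 85 per array) and control spots were left out, and spots of a probe were averaged. No spot was saturated. Probes were named by accession through RefSeq tables of build GRCm38.p6, used for names and promoters (25097 of 41174 probes), by a current symbol (6333) or by the file's name (9744). A probe counted as above background when over 50% of its spots carried the software's mark, and a gene as measured when either array of a comparison passed. Where just 1 passed, the dim array was set to its own value or to its lowest value above background, whichever was higher, and the difference is given as at least that large.

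The members and lists were chosen with earlier results of these data known. Genes named from the lists were the 2 highest and 2 lowest of each list in each genotype comparison, and those at least 2-fold apart in the same direction in both. The test was limma 3.58.1 (R 4.3.3) over genes above background somewhere, called at a Benjamini-Hochberg adjusted p under 0.05, and was tested on simulated data. If both tissues came from the same mice, the arrays are not independent. Alternatives were median, quantile and cyclic loess scaling, normexp with an offset of 50, no background filter, a fold of 1.5 and other choices of probe.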

Additional observations from a re-analysis of the deposited data

Results flagged for a closer look

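Ddit4 differed by 1.83 between spleen KO and WT and by -1.25 between marrow KO and WT, a difference of 3.08 between the tissues, past 2-fold in opposite directions. The difference between tissues was not tested, since each group is 1 array.

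Btg2 went in opposite directions past 2-fold between spleen and marrow in the 2 genotypes at its probes nearer the 5′ end. At base 284 the spleen minus marrow difference was -1.59 in KO and 1.23 in WT, which lie -2.82 apart, and at base 549 it was -1.35 in KO and 1.13 in WT, -2.48 apart. With median scaling the WT value at base 549 was 0.96, under 2-fold. These differences between genotypes were not tested, and the brightest probe of Btg2 did not show them, with -0.40 in KO and -1.81 in WT.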

How the results depend on the processing

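Of 66 counts recomputed under the alternatives, 50 stayed within 1.5 times the reported total and 16 moved. Of 650 single differences 54 turned sign, 7 of them from a reported difference of at least 2-fold. Under the scalings and normexp the brightest probe entered both for its gene and as a probe, so both totals hold repeats. Leaving out the background filter could turn no member, since all member probes were above background. With a fold of 1.5 the members counted as apart were 4 in the marrow (28.7% of genes), 8 in the spleen (55.2%) and 6 between the KO tissues, and 18 list genes in the marrow. Scaling to the median gave 7 members in the spleen. There it also put the median difference of all genes above background on both arrays at 0.69, against 0.27 as reported. For the other scalings the share of all genes 2-fold apart is not given here, so their member counts have no such share beside them. Quantile normalization gave 0 members in the marrow, 2 in the spleen and 4 between the KO tissues, and cyclic loess 2 members and 13 list genes in the spleen. With normexp there were 5 list genes in the marrow, and 3 members passed in the tissue term, where 10.6% of all genes were called. The median over probes gave 4 members between the KO tissues and turned Mdm2 to -0.24, Trp53inp1 to -1.0 and Btg2 to -2.64 in the spleen, and Btg2 to 1.13 between the WT tissues. Taking the probe nearest the 3′ end, an alternative chosen after seeing the data like the next, gave 2 members in the marrow. The probe nearest the 5′ end gave 2 members in the marrow and 5 between the KO tissues, and turned Mdm2 to -1.55, Trp53inp1 to -3.19 and Btg2 to -3.00 in the spleen, and Trp53inp1 to 0.92 and Btg2 to 1.23 between the WT tissues. With the probe nearest the 3′ end the spleen split was 5 higher and 1 lower. The median over probes and the probe nearest the 5′ end kept near totals in the spleen and between the WT tissues. Each of these 2 settings changed the split of members, to 2 higher and 3 lower in the spleen. Between the WT tissues each changed it to 1 higher and 2 lower. The cause was not tested.

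The number of genes called in the genotype term ran from 0 (cyclic loess, 2111 at an unadjusted p under 0.05) to 630 (normexp), with 443 after median scaling, 593 without the filter, 8 with the median over probes and 3 in the fit across probes, against 2 reported. In the tissue term it ran from 1058 to 2689, against 1556. The members called in the genotype term were 0 under every setting tried. Over genes above background on both arrays, median scaling moved the median difference by 0.42 in the spleen and by 0.23 and -0.17 for the tissues of KO and WT. Normexp moved the KO tissues by 0.15 and cyclic loess by -0.11. The share of genes 2-fold apart that were higher was 63.1% in the marrow, 75.3% with cyclic loess or normexp. It was 57.5% in the spleen, 79.8% with median scaling and 69.9% with normexp, 52.7% between the KO tissues and 65.1% with median scaling, and 49.8% between the WT tissues and 38.8% with median scaling.

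The tissue term already in the fit compares KO with WT within each tissue and slide. No further pairing of samples was possible because each group has 1 array, and for the same reason no array was left out. Slide as a block was not run because slide and tissue coincide. Of the members' probes, that of Cdkn1a was well above background in 8 of 10 spots on spleen KO.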

Other observations

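A probe that the files list under U59758, described there as a p53 variant and placed on chromosome 17 at 54559583 to 54559642 of mm9, is not one of the 20 probes. Its signals were 136 on marrow KO and 192 on marrow WT, and 46.5 on spleen KO and 573 on spleen WT. Its differences were -0.57 in the marrow and -2.73 in the spleen, and spleen WT was the high array.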
